A study of Mus musculus with 18 samples.

Results

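The suppressor of cytokine signalling (SOCS) family was examined in the deposited gene counts of this mouse RNA-Seq series. Its 8 genes, Socs1 to Socs7 and Cish, were chosen by name from the 49585 genes of the table, and all 8 were found. SOCS proteins carry an SH2 domain that docks on phosphorylated receptors or Janus kinases (JAKs), and a SOCS box that recruits a ubiquitin ligase built on elongins and a cullin. Cytokines acting through JAKs and STAT transcription factors switch several of these genes on, and the proteins then dampen the same pathway as a feedback brake. Socs1 restrains interferon gamma signalling, Socs3 restrains receptors of the interleukin-6 and G-CSF type, and Cish and Socs2 are targets and restraints of STAT5 signalling. Socs4, Socs5, Socs6 and Socs7 are less tied to cytokines, and several of them have been linked to growth factor receptors.

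The 18 libraries were 6 groups of 3, all from mice of the strain labelled Kaede, which make a photoconvertible protein that turns from green to red under violet light and so tags the cells of an illuminated tissue. For the inflamed groups viable CD45+ Kaede red+ leukocytes were sorted, CD45 being a surface protein of leukocytes. These mice received OT-II Th1 cells (T cells that recognise ovalbumin), were immunized with ovalbumin in CFA, and were later challenged with heat-aggregated ovalbumin (HAO) in the footpad or the ear pinna. Joint nonmigrated and skin nonmigrated cells were sorted from the inflamed joint and ear, and joint migrated and skin migrated cells were sorted from the lymph node after leaving those sites. The other groups, joint node steady state and skin node steady state, hold lymph node leukocytes labelled as migrated from the joint or ear without inflammation. Titles of the joint node steady state samples carry PBS in place of HAO and the letters KG, and those of the skin node steady state samples carry the word naive. The labels do not explain KG, so whether Kaede green or Kaede red cells were sorted there is not known, and every comparison of migrated with steady-state cells may set differently gated cells side by side. Whether the mice of these groups received Th1 cells or were immunized is not in the labels either. In the study's protocol a PBS challenge followed both steps. The control groups may therefore also differ from each other in more than the site. Libraries were biological replicates from pools of several mice of both sexes according to the study, which used young adults matched for age. Kaede is made throughout the body of this strain, whereas the transferred Th1 cells did not carry it and so fell outside the red sort. Each library is a mixture of cell types, so a lower gene level from fewer cells of a type and from less RNA per cell cannot be told apart.

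Library totals were 19239531 to 22528895 assigned counts in the 6 inflamed skin libraries and 28577566 to 43814403 in the other 12. The share of reads in no annotated feature was 0.0925% to 0.135% in the inflamed skin libraries and 0.227% to 0.562% in the others, so any difference in how these libraries were made or counted cannot be told apart from the site of inflammation. The summed level of 4 leukocyte markers (Ptprc, which encodes CD45, with Cd52, Coro1a and Laptm5) was 4293 to 6016 CPM in all 18 libraries. CPM here are counts scaled to a common library size by the TMM method over all 18 libraries. Of the skin nonmigrated libraries, replicate 3 stood apart from the other 2. Its summed migratory dendritic cell markers (8 genes) were 608 CPM against 1455 and 2096, its T cell markers (8 genes) 369 against 925 and 1056, its monocyte and macrophage markers (9 genes) 13130 against 6251 and 4915, and its fibroblast markers (5 genes) 252 against 59.0 and 61.6. Several results of the family genes are given with and without it, while values and counts of other genes are given only with it.

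Stretches of promoter sequence were taken from RefSeq (build GRCm38.p6, the same coordinates as mm10), whose table held windows of 300 bases for 4 of the 8 genes, Cish, Socs1, Socs3 and Socs4. Socs2, Socs5, Socs6 and Socs7 were not in it. The motif TTCNNNGAA, which STAT dimers are known to bind and which reads the same on both strands, was searched in all windows from 250 bases before to 50 bases after the RefSeq start. It occurred 2 times in the Cish window, 1 time in the Socs3 window, and not in those of Socs1 and Socs4. Of all 32851 windows, 8.3% held it at least once and 0.457% held it 2 or more times. The form with a wider gap, TTC and GAA set 4 bases apart, was found in none of the 4 windows and in 6.95% of all windows. Socs1 held 2 overlapping copies of the interferon response type, GAAA followed after 2 bases by GAAA, a motif searched on both strands only after the sequence had been read. Of all windows, 3.44% held that motif and 0.225% held it 2 or more times. The 3 stretches below show these matches in capitals, each as 30 bases read 5′ to 3′ along the gene.
Cish: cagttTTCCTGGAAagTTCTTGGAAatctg
Socs3: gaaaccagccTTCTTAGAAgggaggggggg
Socs1: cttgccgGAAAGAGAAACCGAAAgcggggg
The Cish stretch lies at chr9:107296654-107296683 on the plus strand, from base -5 to base 25 of the RefSeq start, within a noncoding exon of GENCODE M21. Socs3's lies at chr11:117969501-117969530 on the minus strand, from base -164 to base -135, in an intron of the gene as GENCODE draws it. Socs1's lies at chr16:10785597-10785626 on the minus strand, from base -90 to base -61, outside the annotated gene. A match describes the letters of the window and is not a measured binding site. The genes themselves span chr9:107296026-107302784 for Cish, chr16:10782240-10785536 for Socs1, chr10:95385362-95417180 for Socs2 and chr11:117966079-117970047 for Socs3 in mm10. Of the exon bases of Cish, 4.07% and 7.46% are shared with the opposite-strand genes Gm17040 and Gm17041, which together held 28 counts over the 18 libraries.

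Socs3 had the highest level of the family per length in all 6 groups. Compared per kilobase of annotated exon, it reached 332 ± 52.6 CPM per kb (SD, n = 3) in joint nonmigrated and 260 ± 50.4 in skin nonmigrated cells, and fell to 29.5 ± 3.78 in the skin node at steady state. Its share of the summed level of all 8 genes was 90.3% ± 1.70 in joint nonmigrated and 74.4% ± 6.30 in skin nonmigrated cells, against 48.8% ± 4.97 and 40.2% ± 2.07 in the matching migrated cells. Socs2 was the most variable of the family in rank. It ranked last in joint nonmigrated cells (1.56 ± 0.254 CPM per kb) and in both steady-state nodes (0.372 ± 0.0475 in joint, 0.438 ± 0.0701 in skin), and second in joint migrated (26.4 ± 10.8) and skin migrated cells (41.5 ± 6.05). In joint migrated cells its range overlapped that of Socs1, the next in order, and in joint nonmigrated cells it overlapped that of Socs5. Socs1 and Cish neighboured each other in joint nonmigrated, joint migrated and skin migrated cells with overlapping ranges. The lengths used are unions of all annotated exons, from 2891 bases for Socs3 and 2908 for Socs1 to 9531 for Socs2 and 11349 for Socs6, and which exons these cells use was not measured.

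**Figure D1:**
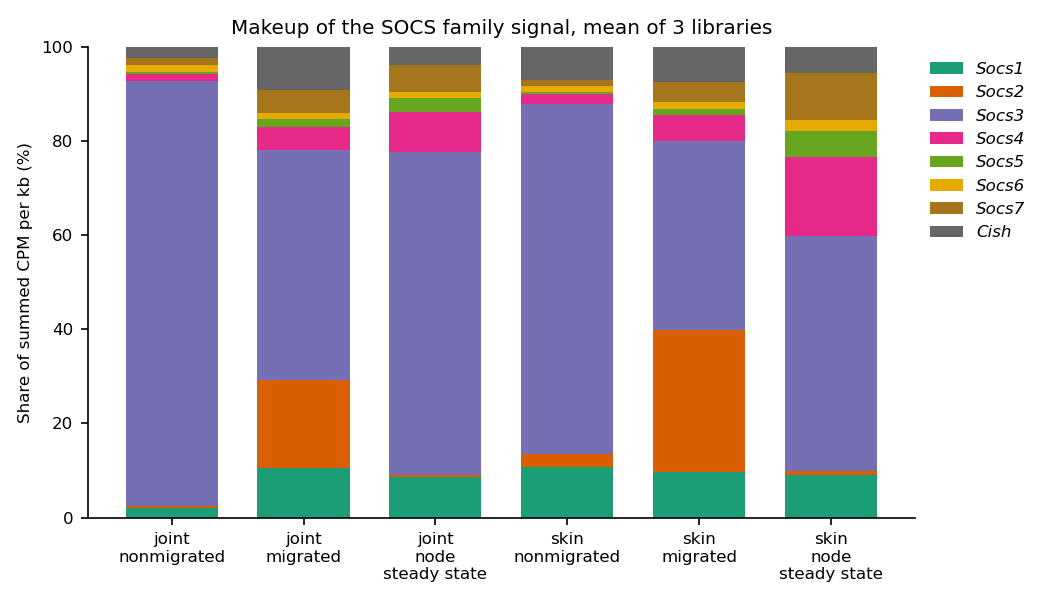
Share of each SOCS family gene in the summed CPM per kb of the 8 genes (vertical axis, percent), as the mean of 3 libraries in each of the 6 groups (bars). Socs3 makes up 90.3% of the joint nonmigrated bar, and the Socs2 segment is largest in skin migrated (30.2%) and joint migrated cells (18.8%).

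Summed over the 8 genes, the level was 367 ± 50.8 CPM per kb in joint nonmigrated and 348 ± 50.3 in skin nonmigrated cells. It was 137 ± 15.1 in joint migrated and 138 ± 3.37 in skin migrated cells. The steady-state nodes held 121 ± 5.17 in joint and 59.1 ± 3.69 in skin. The order of groups by this sum was not that of Socs3 alone, whose level was higher in the joint node at steady state (83.5 ± 4.94 CPM per kb) than in joint migrated (66.6 ± 6.04) or skin migrated cells (55.2 ± 3.99).

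**Figure D2:**
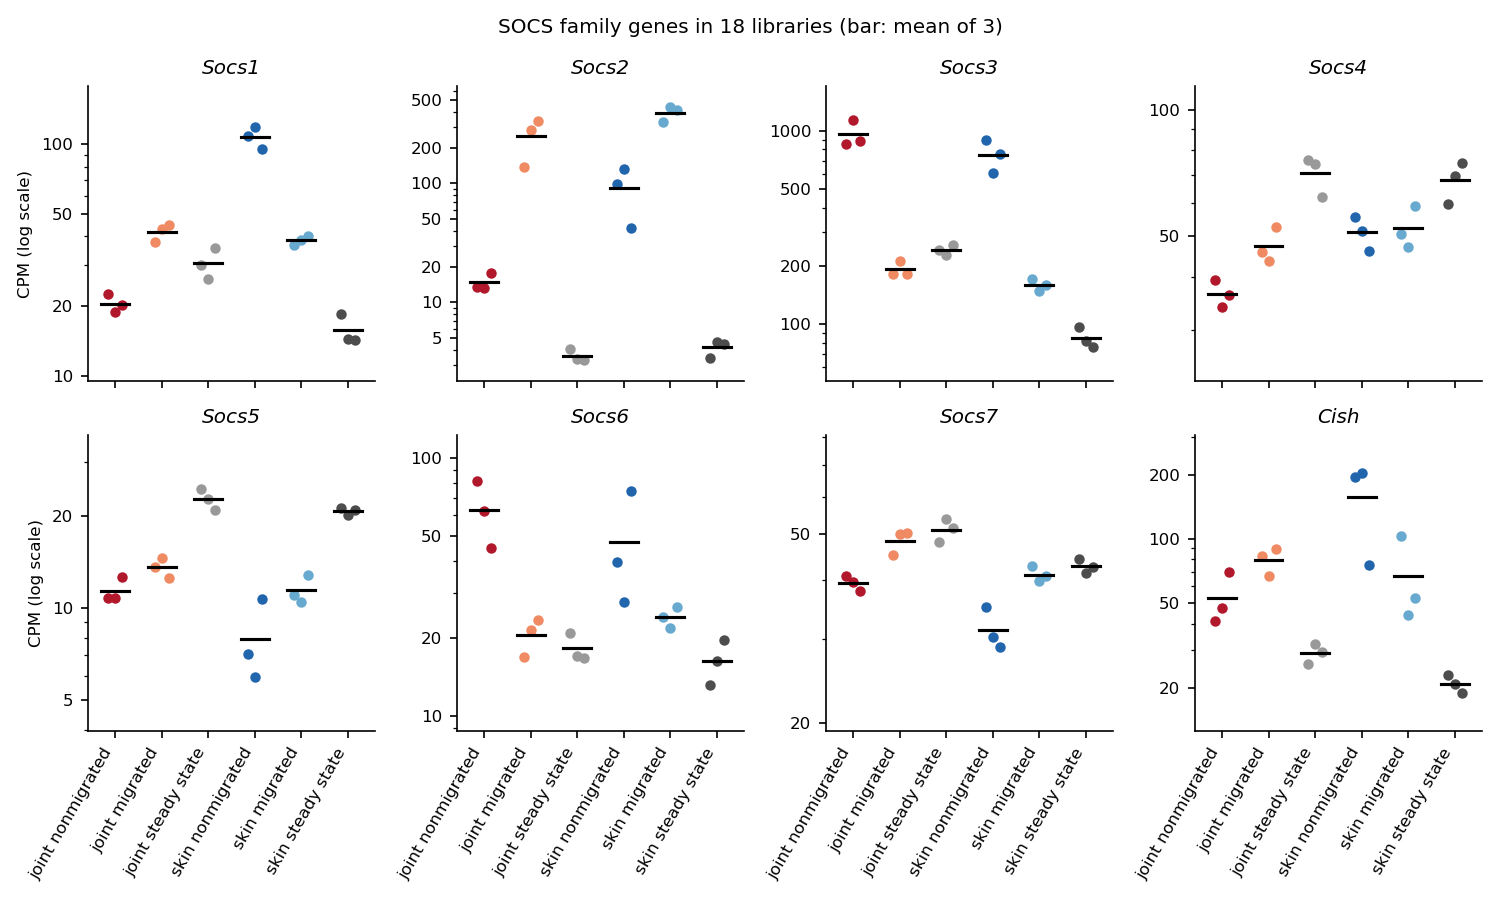
CPM of each SOCS family gene (vertical axes, log scale) in the 3 libraries of each of 6 groups (points), with the mean as a bar. Socs1 is highest in skin nonmigrated cells, Socs2 in both migrated groups, and Socs3 in both nonmigrated groups.

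The first comparison asked which family genes differed between cells that left the inflamed joint and cells that stayed. Socs1 and Socs2 were higher and Socs3 was lower in joint migrated cells, and the other 5 did not pass. Genes were tested across the 12 inflamed libraries with edgeR's quasi-likelihood test and Benjamini-Hochberg adjustment over 16777 genes, and calls required both an adjusted p below 0.001 and a log2 fold change beyond 1 in either direction. All 8 genes passed the filter on low counts, the lowest count of any of them in a library being 102. Of all genes tested 21.4% were called, against 3 of 8 here. Libraries of the groups did not overlap for 6 of the 8, as for 65.5% of all genes.

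Socs3 was 856, 1134 and 887 CPM in the joint nonmigrated libraries and 182, 213 and 183 in the joint migrated ones. Every nonmigrated library was above every migrated one, and the log2 fold change was -2.31 ± 0.17 (SE), which is 4.98-fold lower (adjusted p = 9.92e-07). Socs2 was 13.5, 13.3 and 17.6 CPM in nonmigrated and 137, 282 and 337 in migrated libraries. The groups were far apart, with migrated replicate 1 the lowest of its group, and the log2 fold change was 4.09 ± 0.43 (adjusted p = 1.32e-05). Socs1 was 22.5, 18.8 and 20.2 CPM in nonmigrated and 37.9, 43.0 and 44.6 in migrated libraries, again without overlap. Its change of 1.03 ± 0.11 (adjusted p = 1.91e-05) sits at the size threshold, and without joint nonmigrated replicate 2 it was 0.97 and no longer called. Socs6 was 81.7, 62.6 and 44.9 CPM against 16.9, 21.5 and 23.5, a difference of -1.61 ± 0.32 that missed the threshold (adjusted p = 0.00118). It was called when skin nonmigrated replicate 2 (adjusted p = 0.000365) or replicate 3 (adjusted p = 7.84e-05) was left out of the shared fit. DESeq2 called it too (adjusted p = 2.96e-06), as did edgeR with only the groups compared (adjusted p = 0.00059). It was also called without a filter (adjusted p = 0.000116) and in a fit of all 18 libraries (adjusted p = 0.000154). Cish overlapped between the groups (0.60 ± 0.38, adjusted p = 0.206), and Socs4, Socs5 and Socs7 differed by 0.38, 0.25 and 0.30 on the log2 scale.

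Cell type markers moved with this comparison. All 8 neutrophil markers and all 9 monocyte and macrophage markers were called lower in joint migrated cells, with summed levels of 5639 to 17280 against 39.8 to 104 CPM and of 19660 to 24240 against 403 to 550 CPM. Of the migratory dendritic cell markers 6 of 8 were called higher, summing to 459 to 618 CPM in nonmigrated and 3291 to 8356 CPM in migrated libraries, and all 8 T cell markers were called higher. B cell markers were called higher for 5 of 7 and fibroblast markers lower for 5 of 5. None of the neutrophil, macrophage, dendritic or T cell markers was at or under 3 counts in every library of either group. Their part in the differences of Socs1, Socs2, Socs3 and Socs6 was not tested.

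The same question for skin gave the same direction for Socs2 and Socs3 and the opposite direction for Socs1. Of all genes 20.9% were called and 3 of the 8 here, and 5 of 8 had groups that did not overlap, as 61.6% of all genes did. Socs1 was 108, 119 and 95.1 CPM in skin nonmigrated and 36.9, 38.7 and 40.0 in skin migrated libraries. The fall was 2.79-fold with tight libraries on both sides (log2 fold change -1.48 ± 0.12, adjusted p = 1.58e-06). Socs3 was 895, 603 and 754 CPM in nonmigrated and 172, 149 and 159 in migrated libraries. This difference of -2.24 ± 0.17 (adjusted p = 1.13e-06) was close to that in the joint.

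Socs2 was 99.8, 133 and 42.0 CPM in skin nonmigrated and 330, 440 and 415 in skin migrated libraries. The groups did not overlap, and the log2 fold change was 2.10 ± 0.40 (adjusted p = 0.000825). That call is close to the threshold: it was met in 4 of the 12 fits that left out 1 library, where the log2 fold change was 1.76 to 2.48, and was lost without any 1 of the joint nonmigrated or skin migrated libraries, joint migrated replicate 2 or skin nonmigrated replicate 1 (adjusted p 0.00141 to 0.00364). Without skin nonmigrated replicate 3 it was 1.76 ± 0.33 (adjusted p = 0.000903). Cish was 195, 203 and 75.1 CPM in nonmigrated and 103, 44.0 and 52.8 in migrated libraries. Here skin nonmigrated replicate 3 lay inside the migrated range, and Cish was not called with it (-1.25 ± 0.39, adjusted p = 0.0163) or without it (-1.58 ± 0.32, adjusted p = 0.00148). Socs6 was 39.5, 27.6 and 74.9 CPM against 24.2, 22.0 and 26.4, a difference of -0.97 ± 0.32 (adjusted p = 0.0209) that was -0.47 without replicate 3. Socs5 and Socs7 differed by 0.53 and 0.38, and Socs4 by 0.03. Without replicate 3 Socs5 differed by 0.81 (adjusted p = 0.00201), which was not called.

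In skin, too, all 8 neutrophil and all 9 monocyte and macrophage markers were called lower in migrated cells, with sums of 1720 to 2854 against 17.7 to 34.3 CPM and of 4915 to 13130 against 457 to 740 CPM. Ly6g was at or under 3 counts in every skin migrated library. Migratory dendritic cell markers were called higher for 4 of 8 genes, with sums of 608 to 2096 against 6381 to 8989 CPM, and T cell markers for 4 of 8. B cell markers were called higher for 7 of 7 and fibroblast markers lower for 5 of 5. Their part in the changes was not tested.

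Whether the migration change differed between sites was tested directly as an interaction. Only 0.119% of all genes (20 of 16777) were called, and Socs1 was among them. Its change was higher in joint than in skin by 2.51 ± 0.16 on the log2 scale (adjusted p = 7.99e-05), the opposite signs above put as 1 value. Without skin nonmigrated replicate 3 the difference was 2.59 ± 0.15 (adjusted p = 1.56e-05). Of the genes on the cytokine pathway lists used below, the other one called was Il7r, the receptor for interleukin-7, at 2.71 ± 0.27 (adjusted p = 0.000667). Socs2 differed by 1.98 ± 0.55 (adjusted p = 0.0472) and Cish by 1.85 ± 0.55 (adjusted p = 0.0602), neither of which was called. Without skin nonmigrated replicate 3 these were 2.32 (adjusted p = 0.00316) and 2.18 (adjusted p = 0.00513). For Socs3 the interval of the difference ran from -0.52 to 0.36.

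**Figure D3:**
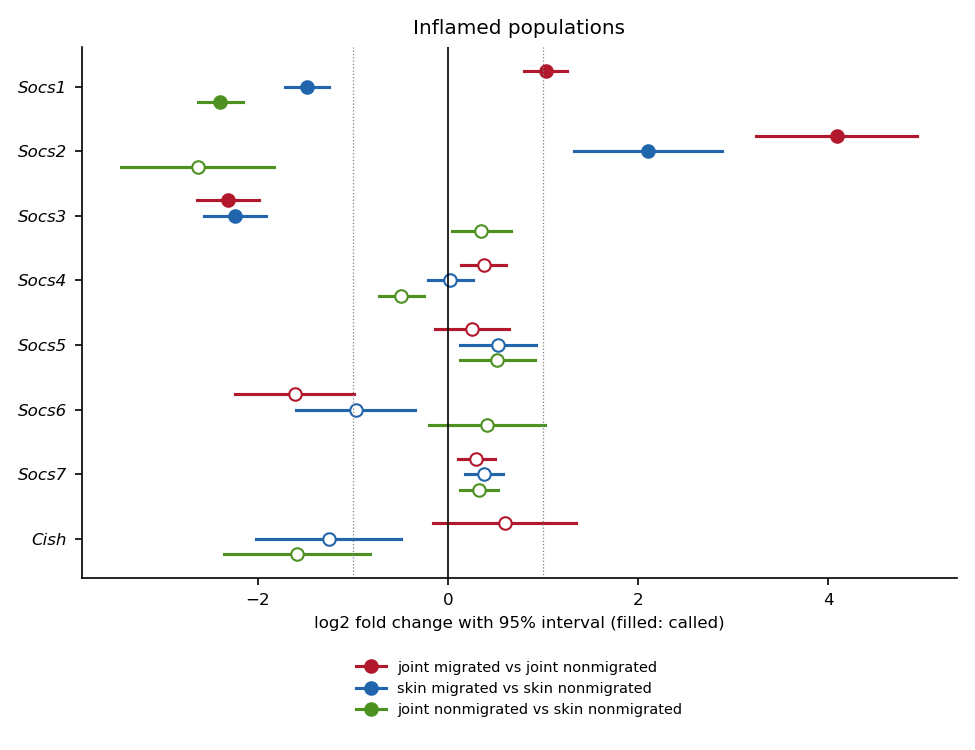
Log2 fold change of each SOCS family gene (horizontal axis, with approximate 95% intervals from the SE) for 3 comparisons among inflamed populations, with filled points for genes called. Dotted lines mark the size threshold of 1 in either direction. Socs1 has opposite signs in joint (1.03) and skin (-1.48), while the Socs3 points of both sites lie near each other (-2.31 and -2.24).

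The cells that stayed were then compared between sites. Between joint nonmigrated and skin nonmigrated cells 3.05% of all genes were called, and Socs1 was the 1 called among the 8, being 5.24-fold lower in joint (-2.39 ± 0.12, adjusted p = 3.16e-06). The highest joint library (22.5 CPM) lay well under the lowest skin library (95.1 CPM). In the family 6 of 8 genes did not overlap between these groups, as for 37.9% of all genes. Socs2 was lower in joint by -2.63 ± 0.41 (adjusted p = 0.00103) and Cish by -1.59 ± 0.39 (adjusted p = 0.0120), neither of which was called. Without skin nonmigrated replicate 3, which had the lowest Socs2 and Cish of its group, both were called, at -2.97 (adjusted p = 6.84e-05) and -1.92 (adjusted p = 0.000881). Without joint migrated replicate 1 Socs2 was called as well (adjusted p = 0.000571). Socs3 differed by 0.35 ± 0.16 (adjusted p = 0.120) with overlapping libraries. Markers called higher in joint were 2 of 8 for neutrophils, 1 of 5 for eosinophils and 6 of 7 for B cells, whose sums were 123 to 294 CPM against 10.8 to 25.4. Markers called lower were 2 of 8 for migratory dendritic cells, 2 of 4 for endothelial cells and 2 of 5 for keratinocytes, and in the last list Krt14 and Krt1 were at or under 3 counts in every joint nonmigrated library. By edgeR 0 of 8 T cell markers were called, with 6 at an unadjusted p under 0.05 and 3 called lower by DESeq2. Their part in the Socs1 difference was not tested.

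After migration no family gene was called between the sites. None of the 8 was called between joint migrated and skin migrated cells by edgeR or by DESeq2, and 1 of 8 had an unadjusted p under 0.05. Over all genes the share called was 0%, with 2770 of 16777 at an unadjusted p under 0.05 and 177 called by DESeq2. Only Socs3 and Socs7, 2 of 8, had groups that did not overlap, against 28.2% of all genes. For Socs1 the interval of the difference ran from -0.10 to 0.34 and for Socs3 from -0.04 to 0.58. The interval was wider for Socs2, from -1.40 to 0.10, and for Cish, from -0.49 to 1.01. Differences within these intervals remain compatible with these libraries.

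Migrated cells were then compared with the steady-state cells of the same node. The difference is called the inflammation change below, although inflammation and any difference in the cells sorted cannot be told apart in it. Fits used the 12 lymph node libraries and 17107 genes. Socs2 differed most in both nodes. It was 4.07, 3.31 and 3.26 CPM in the joint node and 3.41, 4.63 and 4.49 in the skin node at steady state. Joint migrated cells were 72.4-fold higher (log2 fold change 6.18 ± 0.31, adjusted p = 7.65e-09) and skin migrated cells 96.9-fold higher (6.60 ± 0.32, adjusted p = 2.36e-09). Cish was 25.8, 31.9 and 29.5 CPM in the joint node and 22.9, 20.8 and 18.9 in the skin node at steady state, under every library of the migrated groups. It rose by 1.49 ± 0.24 in joint (adjusted p = 0.000202) and by 1.71 ± 0.25 in skin (adjusted p = 4.49e-05). In joint the Cish call was lost without joint node steady state replicate 1 (adjusted p = 0.00144) or replicate 3 (adjusted p = 0.00113).

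Socs1 was 18.5, 14.5 and 14.3 CPM in the skin node at steady state and was called higher in skin migrated cells (1.32 ± 0.14, adjusted p = 1.87e-06). In the joint node, at 30.2, 26.1 and 35.6 CPM, it was already closer to the joint migrated libraries, and the difference of 0.48 ± 0.13 (adjusted p = 0.00800) was not called. Socs3 in skin passed the p threshold but not the size threshold (0.94 ± 0.11, adjusted p = 6.25e-06), and in joint it differed by -0.29 ± 0.11. Socs5 was lower in migrated cells in both nodes by less than the size threshold, at -0.70 ± 0.11 (adjusted p = 0.000130) in joint and -0.82 ± 0.11 (adjusted p = 2.59e-05) in skin. In all, 2 of 8 genes were called in joint, where 15.9% of all genes were, and 3 of 8 in skin, where 25.1% were. Groups did not overlap for 6 of 8 genes in joint, against 57.5% of all genes, and for 7 of 8 in skin, against 71.2%. The inflamed skin libraries also differ from the skin node steady state in depth and in the share of reads in no feature, which cannot be told apart from inflammation there.

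Cell type markers moved here as well. All 7 B cell markers were called lower in both nodes, with sums of 5181 to 5362 CPM at steady state against 904 to 1194 in joint migrated cells, and of 3322 to 4440 against 163 to 273 in skin. Migratory dendritic cell markers were called higher for 6 of 8 genes in each node, from sums of 724 to 1126 CPM in the joint node and 640 to 805 in the skin node, where Ccl17 was at or under 3 counts in every joint node library. By edgeR and by DESeq2 0 of 8 T cell markers were called in either node, with 3 at an unadjusted p under 0.05 in each, while all 4 regulatory T cell markers were called higher. Neutrophil markers were called lower for 7 of 8 in joint, and monocyte and macrophage markers higher for 8 of 9 in skin. Natural killer cell markers were called higher for 4 of 5 in each node, and mast cell and basophil markers for 4 of 6 in joint and 2 of 6 in skin. The part of these cell types in the results was not tested.

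Without inflammation, 1.44% of all genes were called between the joint and the skin node, and 31.1% did not overlap. Of the 8 family genes 4 did not overlap and 1 was called. Socs3 was 241, 227 and 256 CPM in joint and 97.5, 82.2 and 76.4 in skin, a 2.81-fold difference (1.49 ± 0.11, adjusted p = 3.90e-06). Socs1 was higher in joint by 0.95 ± 0.13 (adjusted p = 0.000534), just under the size threshold, and was called without joint node steady state replicate 2 (1.05, adjusted p = 0.000649). Socs2 did not differ beyond its spread (-0.24 ± 0.29, adjusted p = 0.689). All 8 neutrophil markers were called higher in the joint node, with sums of 450 to 880 against 13.3 to 21.03 CPM, and Ly6g was at or under 3 counts in every skin node library. Monocyte and macrophage markers were called higher for 6 of 9, with sums of 480 to 693 against 78.0 to 105 CPM. Their part in the Socs3 difference was not tested.

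The inflammation change itself differed between nodes for Socs3, by -1.23 ± 0.15 (adjusted p = 0.000373), among the 0.889% of all genes called. Socs3 was 193 ± 17.5 CPM in joint migrated against 241 ± 14.3 in the joint node at steady state, and 160 ± 11.6 against 85.4 ± 10.9 in skin. This call was met in 5 of the 12 fits that left out 1 library. It was lost without any 1 of the joint node steady state libraries, skin migrated replicate 1 or 3, or skin node steady state replicate 2 or 3 (adjusted p 0.00110 to 0.00235). The Socs1 difference, -0.84 ± 0.19 (adjusted p = 0.0135), was not called. Markers differed in this test too. Those of neutrophils were called lower for 1 of 8 (list median -3.665), with 6 called by DESeq2. Monocyte and macrophage markers were called lower for 4 of 9 (list median -2.72), with 6 by DESeq2. Called higher were 3 of 7 B cell and 2 of 4 plasmacytoid dendritic cell markers. The part of cell makeup in the Socs3 result was not tested.

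**Figure D4:**
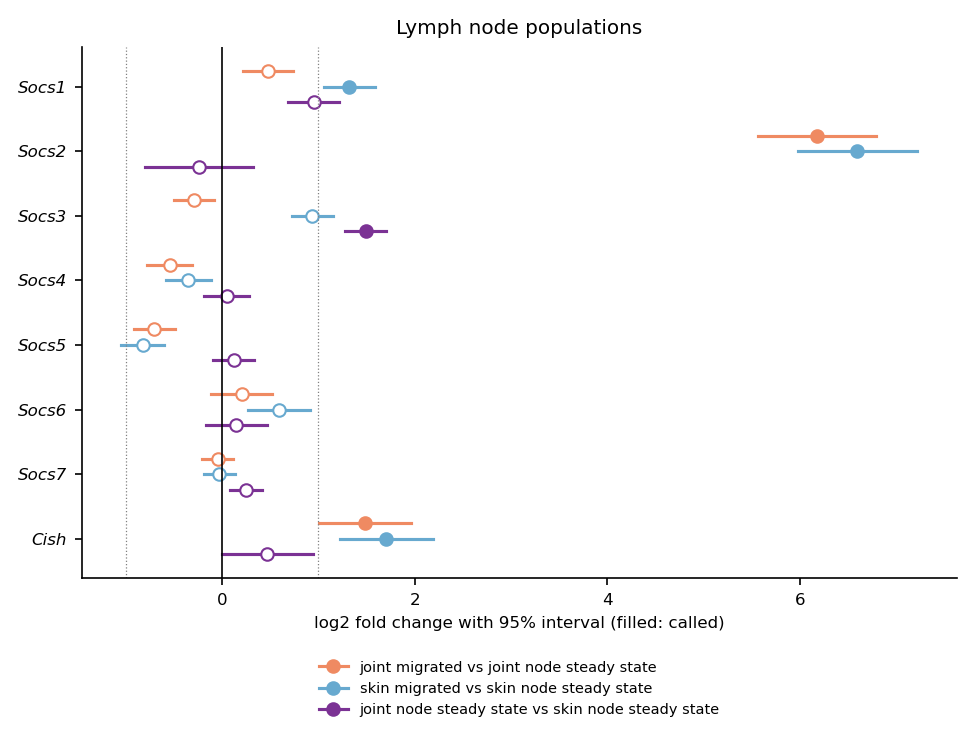
Log2 fold change of each SOCS family gene (horizontal axis, with approximate 95% intervals from the SE) for 3 comparisons among lymph node populations, with filled points for genes called. Socs2 lies at 6.18 and 6.60 for migrated against steady-state cells of the joint and skin node and at -0.24 between the steady-state nodes.

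The least variable members were Socs4 and Socs7. Socs4 ran from 34.0 CPM in a joint nonmigrated library to 75.9 in a library of the joint node at steady state, and was highest in the steady-state nodes (70.8 ± 7.67 in joint, 68.0 ± 7.58 in skin), whose ranges overlapped. Socs7 ran from 28.9 CPM in a skin nonmigrated library to 53.8 in a joint node library. In each pair of groups that shared a stage its joint libraries lay above its skin libraries, by 0.24 to 0.32 on the log2 scale, none of which was called. Socs5 was highest in the steady-state nodes (22.7 ± 1.72 and 20.7 ± 0.590).

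Genes whose log2(CPM + 1) followed each member most closely were sought over all 18 libraries by Pearson correlation, as a description, since libraries of a group share their cell makeup and genes are not independent. Socs2 was closest to Fscn1 (r = 0.995), which encodes the actin-bundling protein fascin of mature dendritic cells, then to Tmtc2 (0.995) and Sh3d21 (0.994). Fscn1 is also on the migratory dendritic cell list, and it is given here beside Socs2 by library. In joint migrated cells Socs2 was 137, 282 and 337 CPM and the list 3291, 7102 and 8356. In skin nonmigrated cells Socs2 was 99.8, 133 and 42.0 CPM and the list 1455, 2096 and 608. The order of libraries was the same in those groups and differed in others: in skin migrated cells Socs2 was 330, 440 and 415 CPM and the list 6381, 8294 and 8989, and in the joint node at steady state Socs2 was highest where the list was lowest. Per 1000 CPM of that list, a scale chosen after the values were seen, Socs2 was 39.7 to 41.5 in joint migrated, 46.2 to 53.1 in skin migrated and 63.4 to 69.2 in skin nonmigrated libraries. It was 23.2 to 29.5 in joint nonmigrated libraries and far lower in the steady-state nodes, at 2.90 to 5.62 in joint and 4.23 to 7.14 in skin. Those low values depend on the list used. At steady state Fscn1 alone was 2.73 to 2.82 CPM in the joint node and 4.80 to 5.90 in the skin node. Socs2 was of similar size there, at 3.26 to 4.07 and 3.41 to 4.63 CPM. In migrated cells Fscn1 was far above Socs2, at 1164 to 3111 CPM in joint and 2459 to 3638 in skin.

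Socs1 was closest to Irf1 (r = 0.932), a transcription factor induced by interferon gamma. Irf1 was 626, 845 and 593 CPM in skin nonmigrated and 286, 276 and 252 in joint nonmigrated libraries, so both genes were highest in skin nonmigrated cells. Trdv4 (0.907), a segment of the T cell receptor delta locus, and Tjap1 (0.906) followed. Socs3 was closest to Selenon (0.988), Alox5ap (0.984), which activates 5-lipoxygenase for leukotriene synthesis, and Ifitm3 (0.982), an interferon-induced membrane protein. Cish was closest to Bcar1 (0.961), Trpm6 (0.953) and Lif (0.953), the last a cytokine of the interleukin-6 family. Lif was 89.6, 121 and 21.8 CPM in skin nonmigrated libraries, lowest in replicate 3 like Cish, while Bcar1 stayed under 3 CPM throughout. Socs4 was closest to Smchd1 (0.955), Socs5 to Hdac10 (0.978), Socs6 to Gm9920 (0.981, at under 4 CPM in every library) and Socs7 to Pom121 (0.903). Among the members themselves the highest correlations were those of Socs3 with Socs6 (0.846) and of Socs1 with Cish (0.816), and the lowest that of Socs5 with Cish (-0.871).

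**Figure D5:**
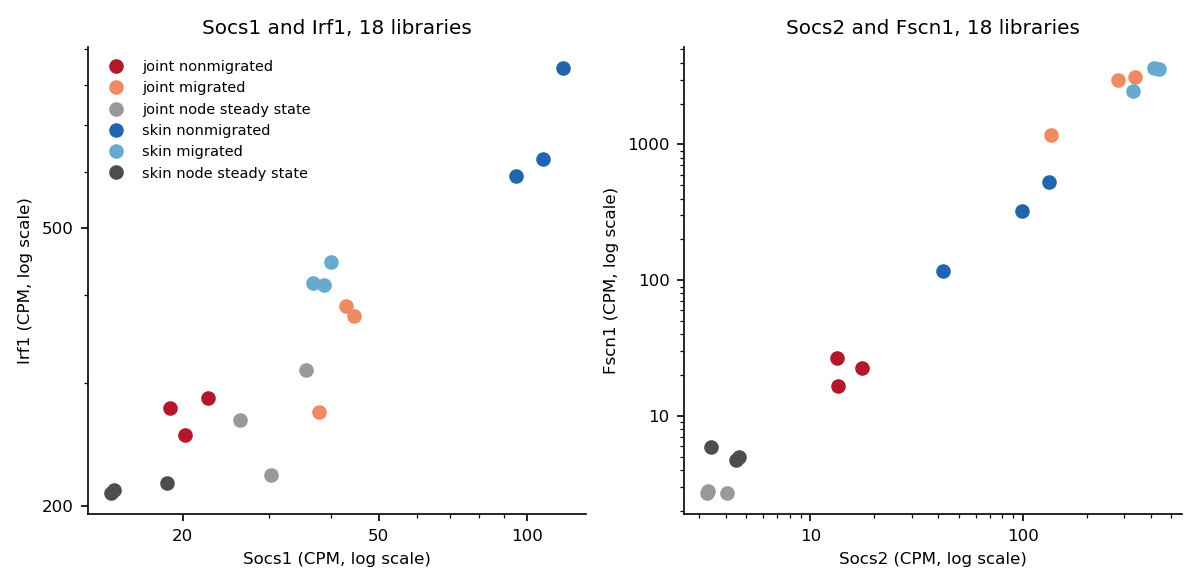
CPM of Socs1 against Irf1 (left) and of Socs2 against Fscn1 (right) in each of the 18 libraries (points, both axes log scale), coloured by group. Skin nonmigrated libraries lie apart at the top right of the Socs1 panel, and the Socs2 panel spreads from the steady-state nodes at the lower left to the migrated groups at the upper right.

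The rest of the pathway is described from gene lists, by counts of genes called and by the median log2 fold change. The median of all genes tested lay between -0.02 and 0.02 in all 9 comparisons. Lists share genes, and each count stands beside the share of all genes called in the same comparison, given above. Of the cytokines that signal through JAKs, 10 of 19 tested were called higher in joint migrated cells than in the joint node at steady state (list median 2.08) and 13 of 19 in skin (list median 3.17), with Il12a, an interleukin-12 subunit, lower in each. Interferon gamma itself (Ifng) rose by 2.87 ± 0.19 (adjusted p = 7.28e-08) in joint and 3.18 ± 0.19 (adjusted p = 1.68e-08) in skin. Between migrated and nonmigrated cells Osm, the gene of oncostatin M, a ligand of the interleukin-6 family, was lower by -3.44 ± 0.41 in joint and -4.08 ± 0.42 in skin, and Il27 by -2.08 ± 0.31 and -3.04 ± 0.31. Between the nonmigrated groups 1 of 21 cytokines was called, Il4, lower in joint by -3.84 ± 0.54.

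Of 34 receptors tested, 9 were called higher and 14 lower in joint migrated than nonmigrated cells, and 3 higher and 11 lower in skin. Il9r rose in both (4.27 ± 0.23 and 3.45 ± 0.22), as did Il21r (1.69 ± 0.14 and 1.70 ± 0.14), which are receptors of the common gamma chain type. Csf2ra, a receptor chain for GM-CSF, and Ifnar1, a chain of the type I interferon receptor, were called lower at both sites. Csf2ra fell by 2.93 in joint and Ifnar1 by 1.18 in skin. Against steady state 9 of 30 receptors were higher and 2 lower in joint, and 11 higher and 2 lower in skin. Il2ra, the high-affinity chain of the receptor for interleukin-2, which acts through STAT5, rose by 3.13 ± 0.14 in joint and 2.88 ± 0.14 in skin. Il6ra, the interleukin-6 receptor chain, fell by 1.05 and 1.26.

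Of the 4 Janus kinases, Jak2 (1.14 ± 0.22) and Jak3 (1.40 ± 0.19) were called higher in joint migrated than nonmigrated cells, and Tyk2 (1.08 ± 0.16) in skin. Jak3 was also higher in skin (0.80 ± 0.18, adjusted p = 0.00297) and Tyk2 in joint (0.73 ± 0.16, adjusted p = 0.00219), without overlap and not called. Jak2 overlapped in skin (0.23 ± 0.21). For none of these kinases was the difference between sites called. Jak2 and Tyk2 rose in both nodes against steady state, Jak2 by 1.81 ± 0.15 in joint and 2.35 ± 0.15 in skin. Jak1 was called in no comparison. Of the 7 STAT genes, Stat4 (2.54 ± 0.38) and Stat5a (1.20 ± 0.20) were called higher in joint migrated than nonmigrated cells. In skin they were higher by 1.52 ± 0.36 (adjusted p = 0.00386) and 0.67 ± 0.20 (adjusted p = 0.0138), without overlap and not called. Stat2 was called lower with migration in skin (-2.06 ± 0.11) and differed by -0.71 ± 0.11 in joint. For none of the 7 STAT genes was the difference between sites called by edgeR, and DESeq2 called 1, higher in joint. Stat2 missed the p threshold narrowly, its change being higher in joint by 1.35 ± 0.16 (adjusted p = 0.00105). Stat2 was also lower in joint than in skin nonmigrated cells (-1.60 ± 0.11), the same pair of groups that Socs1 separated. Stat3, Stat4 and Stat5a were called higher in skin migrated cells than in the skin node at steady state, by 1.30, 1.32 and 1.23, and in the joint node 0 of 7 were called by edgeR or DESeq2, with 4 at an unadjusted p under 0.05. Stat5b and Stat6 were called in no comparison.

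Interferon gamma response genes were lower in joint than in skin nonmigrated cells for 7 of 20 (list median -1.22), among them Igtp, an interferon-induced GTPase (-2.08 ± 0.20), and Irf1. They fell with migration for 4 of 20 in joint (list median -0.25), including Cxcl9 (-4.59 ± 0.34), and for 11 of 20 in skin (list median -1.36), including Cxcl10 (-3.22 ± 0.27). Both encode chemokines that draw T cells. As a difference of the migration change between sites, 0 of the 20 were called by edgeR, with 12 at an unadjusted p under 0.05 and 6 called by DESeq2, 5 of them higher in joint. Of the 14 STAT3 response genes, 9 were lower in migrated cells at each site (list medians -3.32 in joint and -2.36 in skin). Cebpd (-2.91 ± 0.30 in skin) and Fos (-3.19 ± 0.20 in joint) were called lower at both sites. The part of the lower neutrophil and macrophage markers in these differences was not tested. Of the 12 STAT5 response genes, 5 rose and 1 fell with migration in joint (list median 0.98). Il2ra rose by 3.49 ± 0.43 there and the kinase gene Pim2 by 2.38 ± 0.30. In skin 1 rose and 2 fell (list median 0.54). For the difference between sites edgeR called 0 of the 12, with 8 at an unadjusted p under 0.05. DESeq2 called 2, both with the change higher in joint.

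Among other inhibitors of the pathway (11 tested), Pias3, which restrains STAT3, was called higher in skin migrated than nonmigrated cells (1.17 ± 0.17) and higher in both nodes against steady state (1.64 ± 0.13 in joint, 1.60 ± 0.13 in skin). Usp18, an interferon-induced inhibitor of the type I interferon receptor, was lower in joint than skin nonmigrated cells (-1.74 ± 0.21). Between joint migrated and nonmigrated cells 0 of the 11 were called by edgeR or DESeq2, with 10 at an unadjusted p under 0.05. Of the 7 ligase partners of the SOCS box, 1 was called lower with migration in skin (Arih2, -1.05 ± 0.15) and 2 were called higher in skin against steady state (Ube2f and Elob, 1.29 and 1.03), where the list median was 0.80. Among 9 other genes with a SOCS box, 1 was called higher and 2 lower with migration in joint (list median -0.46), and 1 higher and 5 lower in skin (list median -1.81). Spsb1 rose with migration in joint (3.08 ± 0.28) and in skin (1.80 ± 0.27), while Spsb2 fell by 2.15 in joint and was called lower in skin as well. Spsb4, called lower at both sites, went from 4.00 to 5.51 CPM in joint nonmigrated libraries to at most 0.123 in joint migrated ones, and was near 0 in skin migrated ones too. Wsb1 fell by 2.29 in skin. Against steady state 2 of 7 were called higher in joint and 3 of 7 in skin.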

How the data were processed

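RNA of 18 libraries, 3 in each of 6 groups taken from the labels, was sequenced by the authors, who per the submitters' notes used FastQC, Trim Galore, TopHat2, Cufflinks and DESeq2 with build mm10. The deposited values are raw gene counts, which according to the study were made with HTSeq in its default mode. The 5 HTSeq summary rows, 11.3% to 15.1% of a library, were left out of library sizes and tests. Of 49585 gene identifiers 49326 matched GENCODE M21 symbols, and 18650 genes had 0 counts in every library. Each library is a pool of mice, so p-values measure the spread between pools. Libraries of a group differed by more than counting noise (chi-square per degree of freedom 16.2 to 130).

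Genes with too few counts were removed by filterByExpr (minimum count 10). Counts were tested with edgeR 4.0.16 (TMM, quasi-likelihood F test, Benjamini-Hochberg adjustment over all genes, R 4.3.3) in 1 fit of the 12 inflamed libraries and 1 of the 12 lymph node libraries, which share both migrated groups. SE came from the log2 fold change and its F statistic, and intervals use a normal approximation. Calls required an adjusted p below 0.001 and a log2 fold change beyond 1 in either direction. DESeq2 1.42.0, other thresholds, filters, sample sets, a replicate block and leaving out each library were alternatives. The scripts were tested on simulated data. Levels per length divide CPM by the union of annotated exons. Genes named beside the family were JAKs and STATs (1 result is not reported here), the 2 with the lowest adjusted p per pathway list, direction and comparison whose groups did not overlap, and the 3 with the highest Pearson correlation to each member. Irf1 was also named within its pathway list after its values were seen. The members and lists were chosen with earlier results of these data known.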

Additional observations from a re-analysis of the deposited data

Results flagged for a closer look

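The migration change of Socs1 differed between joint and skin by 2.51 on the log2 scale. The difference itself was tested with an interaction term in edgeR's quasi-likelihood test (adjusted p = 7.99e-05), and Socs1 was higher in all 3 joint migrated than in all 3 joint nonmigrated libraries and lower in all 3 skin migrated than in all 3 skin nonmigrated libraries. The inflammation change of Socs3 differed between the joint and the skin node by -1.23, tested in the same way (adjusted p = 0.000373). Migrated and steady-state libraries did not overlap in either node, with Socs3 lower in migrated cells in joint and higher in skin. Socs3 also differed between the steady-state nodes themselves, and the part of cell makeup was not tested.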

How the results depend on the processing

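Of 1424 values of family genes recomputed under the alternatives, 1360 kept their direction and their side of the thresholds, 25 lost a call, 19 gained one and 20 changed sign, none of the last being called. The number of family genes called between joint and skin nonmigrated cells, 1 as reported, was 3 at an adjusted p under 0.05, 3 by DESeq2, 2 without a filter, 2 in a fit of all 18 libraries, 0 with only the groups compared (Socs1 -2.38, adjusted p = 0.00147) and 1 to 3 when 1 library was left out. All genes moved as well, from 3.05% called to 14.3%, 9.25%, 3.46%, 6.08% and 0% under those settings in the same order, and to 0.717% to 7.65% with 1 library left out. The migration difference between sites, with 1 gene called, gave 2 at an adjusted p under 0.05, where 6.13% of all genes were called. Joint migrated against its steady-state node, with 2 called, gave 1 in a fit of all 18 libraries and 1 to 2 with 1 library left out. Of all genes 13.2% and 11.7% to 15.5% were called there. The steady-state nodes gave 1 to 2 with 1 library left out, where 0.469% to 1.89% of all genes were called. The inflammation difference between nodes, with 1 called, gave 0 in a fit of all 18 libraries and 0 to 1 with 1 library left out. Shares of all genes were 0.644% and 0.272% to 1.19%. Joint migrated against nonmigrated cells, with 3 called, gave 4 at an adjusted p under 0.05 and 4 by DESeq2. Of all genes 34.3% and 28% were called there. The cause of these shifts was not tested. Socs2 in skin migrated against nonmigrated cells was also not called with only the groups compared (adjusted p = 0.00374).

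With the replicate number as a block, the 2 differences of changes each gave 0 in place of 1 (Socs1 2.50, adjusted p = 0.00193, and Socs3 -1.23, adjusted p = 0.00218), and Socs2 in skin migration was not called (2.23, adjusted p = 0.00127). No other family call changed under the block, which called 0.00596% and 0.491% of all genes for those 2 differences. The numbers were not taken to pair the samples. Same-numbered joint libraries correlated at 0.0210, 0.254 and 0.195 and skin ones at 0.173, 0.0735 and 0.148, node pairs were negative, and joint nonmigrated replicate 1 correlated best with migrated replicate 2 (0.0385).

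Sign changes were all near 0 or within wide errors. With 1 library left out, Socs4 in skin migration ran from -0.0841 to 0.0939, Socs3 in the migration difference from -0.2257 to 0.0551, Socs4 between steady-state nodes from -0.0452 to 0.13, Socs7 in the inflammation difference from -0.006 to 0.0746 and Cish there from -0.38 to 0.28. Requiring 10 counts in every library of a group gave 0.0327 for that Socs7 value. Of the other named genes' 2115 recomputed calls, 183 were lost and the rest kept. All 48 group levels moved by less than 1 SD with DESeq2 size factors. By Spearman in place of Pearson correlation 0 of the 3 closest genes were shared for Socs1, Socs2, Socs3, Socs5 and Socs6, and 1 of 3 for the others. The lowest count of a family gene in any library was 102, and an effect of depth on the calls was not tested.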
